A study of Mus musculus with 6 samples.

Results

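Genes of 8 ubiquitin ligase families were followed in the livers of 3 male mice. They were taken by gene symbol: the Rnf, Trim, Cul, Fbxl, Fbxo and Fbxw names that continue with a number, and the Arih and Ube3 names, on probes annotated with 1 symbol. The rule gave 118 genes on 160 probes, of 7151 genes on 9663 probes so annotated. The Rnf family held 49 genes, Trim 24, Fbxo 17, Fbxw 10, Fbxl 8, Cul 6, Arih 2 and Ube3 2. The 1st mouse was calorie-restricted and killed at 177 days, the 2nd was fed ad libitum and killed at 174 days, and the 3rd was fed ad libitum and, per its label, killed at 17 days. RNA of each liver went onto 2 array designs, A and B, of 8448 spots each, or 6 arrays in all. The labels name no strain and no length or degree of calorie restriction. With 1 mouse per group no difference has an error between animals, no test or p-value could be given, and diet, age and the individual mouse cannot be told apart.

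Ubiquitin ligases are the enzymes that pick the proteins to be tagged with ubiquitin, most often for destruction by the proteasome. In cullin-RING ligases a cullin is the scaffold, a small RING protein recruits the ubiquitin-loaded enzyme, and an adaptor such as an F-box protein holds the substrate. Most Rnf and Trim proteins carry a RING domain in the same chain as their substrate-binding part, whereas Arih and Ube3 proteins receive the ubiquitin on a cysteine before passing it on. In liver such enzymes act on sterol synthesis, iron sensing, glycoproteins of the endoplasmic reticulum and growth factor signalling.

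The arrays of the ad libitum 174-day mouse stood apart from the rest. Their median spot intensity was 35.8 on array A and 60.8 on array B, against 332.8 to 375 in the calorie-restricted mouse and 364.3 to 402.5 in the 17-day mouse. Values were therefore put on a common scale by quantile normalization of log2 intensity, and every difference below is a difference of normalized log2 values, where 1 is 2-fold. Each comparison with the 174-day mouse rests on these dim arrays. Differences also followed the place of the spot, with a correlation between spots 528 places apart of 0.19 to 0.50 over both arrays and the 3 comparisons (Pearson r across spots, which are not independent). The hepatocyte markers Alb, Apoa1 and Ttr had probes above the brightness filter, 3 of 8 listed markers. Probes of the listed markers of macrophages, erythroid, endothelial and bile duct cells, stellate cells and fibroblasts each made up 0.00354% to 0.0547% of the summed intensity of a mouse. The 4 measured hepatocyte markers made up 0.308% in the calorie-restricted, 0.198% in the 174-day and 0.249% in the 17-day mouse, and the measured macrophage marker 0.0087%, 0.00427% and 0.00753% in the same mice. Of the hepatocyte markers Alb was at 1.18 for diet, while Ttr was at 0.26 and Apoa1 at -0.01. After normalization the macrophage marker Lyz2 was at 0.05 for diet and -0.29 for age. No probe was named for the 4 lymphocyte markers, and the part of other cells in the results was not tested. In whole liver, fewer cells of a type and less RNA per cell cannot be told apart.

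Gene values are medians over probes that passed a brightness filter, set at the 50th percentile of the mean log2 value in each array design. Probes below it are called dim here. Of the 118 genes, 63 had a passing probe and 55 did not. All cullins passed, as did both Arih genes, whereas 31 of 49 Rnf, 10 of 24 Trim, 7 of 17 Fbxo, 4 of 10 Fbxw, 2 of 8 Fbxl and 1 of 2 Ube3 genes did. A high value in 1 mouse could let a probe pass. Spot brightness depends on the probe as well as on the RNA, so that levels of different genes were not compared.

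Between the 2 ad libitum mice, which addresses how liver expression differed with age, most ligase genes lay close together. Of 63 genes, 62 were within 1.5-fold in the 174-day and the 17-day mouse, a share of 98.4%, against 91.4% of all 3865 genes with a passing probe. With the dim probes included the share was 87.3% of 118 members and 85.6% of all genes, near each other. The median of the 63 was 0.05 log2, against -0.03 over all genes, with 35 genes above 0 and 28 below. Rnf14 was at least 2-fold higher in the 174-day mouse and no member was 2-fold lower. Over all genes 0.724% were 2-fold higher and 0.44% 2-fold lower, so that 1 and 0 of 63 are near the background. With the dim probes included, Rnf14 and Trim8 were higher and Fbxo38, Fbxw19 and Rnf157 lower among all 118 members, against 1.96% and 1.26% of 7151 genes. Family medians ran between -0.28 for the 2 Fbxl genes and 0.24 for the 2 Arih genes. With each array only centred on its median, all genes had a median of 0.21 and the members of 0.25. Then 2 members were 2-fold higher, against 1.58% of all genes.

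The diet comparison is between the calorie-restricted and the ad libitum mouse of nearly equal age. Cul1, Rnf7 and Rnf14 were lower under calorie restriction by 2-fold or more, and no member was 2-fold higher. That is 4.76% of the 63 genes on the lower side, against 4.61% of all genes, and 0 against 2.25% on the higher side, so that the lower side was near the background. The Rnf14 call rests on a probe that passed the filter through its high value in the 174-day mouse. Without the spots that stood apart in that mouse, Rnf14 was at -0.21 and 2 of 63 members were lower, against 4.18% of all genes. With the dim probes included, 4 of 118 members were higher (3.39%) and 3 lower (2.54%), against 3.06% and 4.38% of all genes. The members' median was -0.16 log2 and that of all genes -0.04, with 24 members above 0 and 38 below. Within 1.5-fold lay 66.7% of the members and 71.5% of all genes. With each array only centred on its median, all genes had a median of -0.31 and the members of -0.47, and 15 members were 2-fold lower, against 15.8% of all genes. Relative to the median of all genes, the members' median was -0.12 after quantile normalization and -0.16 after centring alone.

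The calorie-restricted mouse was also set against the 17-day mouse, a contrast of both diet and age in which the dim arrays enter only through the shared normalization and the brightness filter. Rnf139 was at least 2-fold higher and no member was 2-fold lower, against 0.466% higher and 1.11% lower over all genes. With the dim probes included, Rnf139 was higher and Fbxw24 lower, each 0.847% of 118 members, against 0.378% and 0.755% of all genes. The members' median was -0.17 log2 and that of all genes -0.09, with 23 members above 0 and 40 below. Centring alone put all genes at -0.16 and the members at -0.21. The 2 mice were also normalized without the arrays of the 174-day mouse, a choice made after seeing the data. There 1 of 64 members was again 2-fold higher, against 0.182% of all genes. That member was Rnf14 (1.08) and not Rnf139 (0.99). The 3 comparisons share mice, so that a value of the 174-day mouse enters the first with the opposite sign to the second.

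**Figure D1:**
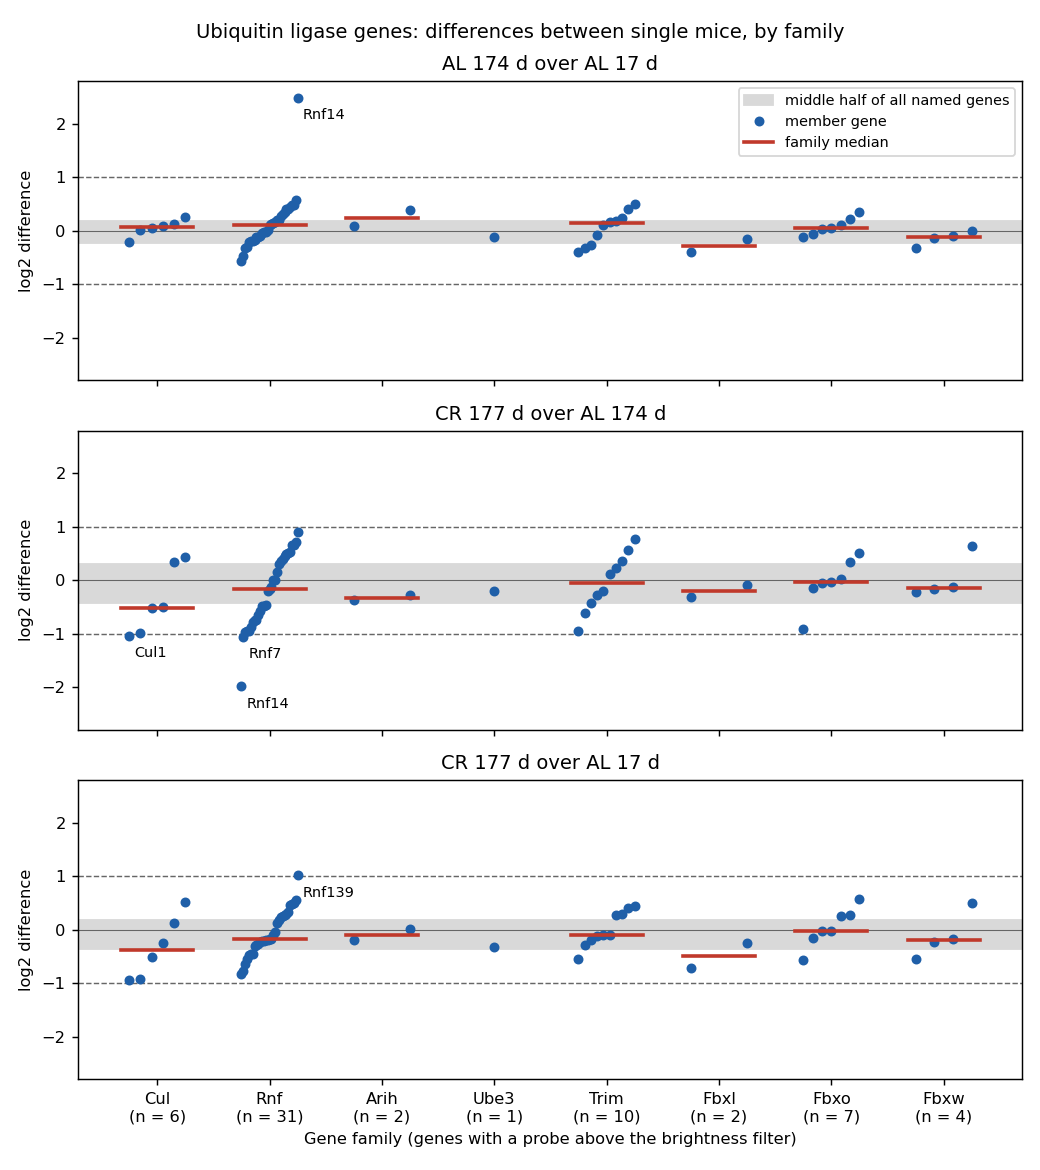
Difference of normalized log2 intensity (vertical axis) for each member gene with a passing probe, by family (horizontal axis), in the 3 comparisons; AL is ad libitum and CR calorie-restricted. Points are genes, red bars family medians, the grey band the interquartile range of all 3865 genes and the dashed lines 2-fold; Rnf14 lies outside the dashed lines in the upper 2 panels, with Cul1 and Rnf7 just below in the middle panel and Rnf139 just above in the lowest.

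The cullins had a median of -0.51 log2 in the diet comparison over 6 genes, of which 4 were below 0. It was the lowest of the 8 families for passing probes, but with the dim probes included the cullins were at -0.26 and the 2 Arih genes at -0.49. After a correction for spot position the cullin median was -0.30. Cul1, the scaffold of the SCF ligases that carry F-box proteins, was at -1.04. Its 1st passing probe read 8.18 in the calorie-restricted, 9.29 in the 174-day and 9.34 in the 17-day mouse, in normalized log2 units. Its other passing probe read 7.47 in the calorie-restricted, 8.42 in the 174-day and 8.13 in the 17-day mouse. Both thus had their lowest value in the calorie-restricted mouse and were similar in the ad libitum mice. The 2 dim probes of Cul1 showed no such step, with diet differences of 0.05 and 0.12, and the median over its 4 probes was -0.45.

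Cul3, the scaffold for BTB adaptors such as Keap1, had a passing probe at 7.16 in the calorie-restricted, 8.15 in the 174-day and 8.10 in the 17-day mouse. Its difference was -0.99 in the diet comparison and -0.94 against the 17-day mouse, just inside 2-fold in each. The dim Cul3 probe had the same sign with a smaller size, at -0.35 and -0.09. With the 174-day arrays left out of the normalization, no Cul3 probe passed the filter. Its passing, and so its part in the cullin median, thus rests on those arrays. Cul2, which serves the von Hippel-Lindau adaptor, was at -0.50 in the diet comparison, and Cul7 at -0.53 with a dim probe at 0.41. Cul5, the scaffold for SOCS-box adaptors, lay on the other side at 0.33, with probes at -0.02 and 0.68. After the correction for spot position the diet differences were -0.10 for Cul2, -0.50 for Cul7 and 0.004 for Cul5.

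Cul4b, which works with the adaptor Ddb1, showed how far probes of 1 gene can disagree. Its 3 passing probes, all on array A, were at 0.74, 0.43 and -0.77 in the diet comparison, and its dim probe at 0.30. Against the 17-day mouse they were at 0.71, 0.52 and -0.66, with the dim probe at 0.35. In the age comparison the 4 probes lay between -0.03 and 0.11, so that they disagreed only in the comparisons with the calorie-restricted mouse. As a gene Cul4b was at 0.43 for diet and at 0.18 after the correction for spot position.

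The RING partner of Cul5, Rnf7, also known as Rbx2, had 1 probe, on array B. It read 8.04 in the calorie-restricted, 9.10 in the 174-day and 8.52 in the 17-day mouse. The 174-day value was the highest and the calorie-restricted value the lowest, with differences of -1.06 for diet, 0.58 for age and -0.48 between the calorie-restricted and the 17-day mouse. After the position correction the diet difference of Rnf7 was -0.63, that of Cul1 -0.99 and that of Cul3 -0.85.

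These 3 genes were the cullin-RING core subunits with the lowest diet values, Cul3 by a probe that passed only with the 174-day arrays. Their upstream sequences are shown, from RefSeq on the mouse build GRCm38.p6. Each is the 250 bases before the outermost annotated start, 5′ to 3′ on the strand of the gene, at chr6:47453482-47453731 (+) for Cul1, chr1:80340691-80340940 (-) for Cul3 and chr9:96478676-96478925 (-) for Rnf7. Capitals mark matches, on either strand, to the TATA box (letters TATAAA), the CCAAT box, the GC box (letters GGGCGG), the ETS motif (letters CCGGAAG), the E-box (letters CACGTG) or the FOXO motif (letters TGTTTAC).
Cul1: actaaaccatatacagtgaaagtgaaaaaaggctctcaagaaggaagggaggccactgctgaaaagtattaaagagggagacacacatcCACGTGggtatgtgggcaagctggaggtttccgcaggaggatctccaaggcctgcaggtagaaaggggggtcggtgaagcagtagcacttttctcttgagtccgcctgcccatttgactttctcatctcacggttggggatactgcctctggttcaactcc
Cul3: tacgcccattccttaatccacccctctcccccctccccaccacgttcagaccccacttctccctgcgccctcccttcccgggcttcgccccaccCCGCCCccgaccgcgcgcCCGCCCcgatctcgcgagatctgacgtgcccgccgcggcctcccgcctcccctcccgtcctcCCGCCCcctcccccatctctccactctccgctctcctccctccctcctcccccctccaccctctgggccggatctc
Rnf7: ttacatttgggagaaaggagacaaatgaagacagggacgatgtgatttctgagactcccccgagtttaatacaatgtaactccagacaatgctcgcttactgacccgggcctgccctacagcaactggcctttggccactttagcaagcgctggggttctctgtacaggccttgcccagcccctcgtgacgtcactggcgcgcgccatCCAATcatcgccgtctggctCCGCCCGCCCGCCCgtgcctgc
The Cul1 window held an E-box and 5 CpG dinucleotides, and it is 1 of 3 windows given for the gene. The Cul3 window held 3 GC boxes and 23 CpG. The Rnf7 window held a CCAAT box, 3 GC boxes that overlap each other, and 16 CpG. Cul3 and Rnf7 thus shared the GC box, which was in 42.7% of 17492 protein-coding windows. No binding was measured, and a match is a description of letters only.

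Partners and regulators of the cullins were measured from a list of 39 symbols, of which 16 had a passing probe. None was 2-fold apart in any comparison, against 0.44% to 4.61% of all genes per comparison and direction, so that 0 of 16 is near the background. In the diet comparison their median was -0.16, with 10 below 0 and 6 above. The lowest were Spop (-0.99), a substrate adaptor of Cul3, Ccnf (-0.98), an F-box protein that is a cyclin, and Cand1 (-0.92), which exchanges adaptors on Cul1. Ccnf is the median of probes that disagreed, at -2.15 and 0.19, and the 1st was high in the 174-day mouse alone. The dim probe of Cand1 was at -0.31, but its calorie-restricted and 17-day intensities lay under the 5th percentile of their arrays and were set to it. The F-box gene Btrc was at -0.59, again between unlike probes at -1.18 and -0.01, with dim probes at -0.28 and -0.13. The highest was Uba3 (0.42), of the enzyme that activates Nedd8 for attachment to cullins. Nedd8 itself was at -0.01 and Rbx1, the RING partner of most cullins, at -0.32, with dim probes of Rbx1 at 1.05 and 0. The value of 0 arose by construction, since both intensities lay under the 5th percentile of their arrays. Nedd8 and Rbx1 were named after their values were seen. In the age comparison the 1 probe of Spop was at 0.90, and between the calorie-restricted and the 17-day mouse at -0.09.

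**Figure D2:**
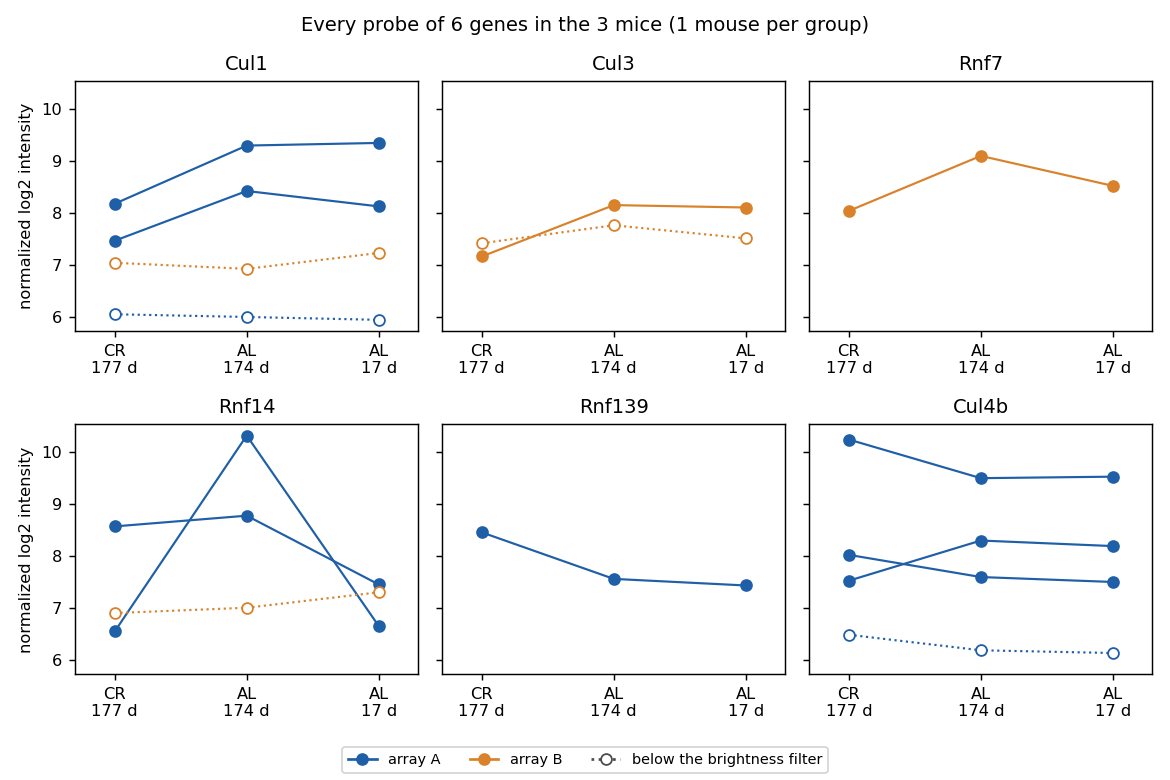
Normalized log2 intensity (vertical axis) of every probe of 6 genes in the calorie-restricted (CR) and the 2 ad libitum (AL) mice (horizontal axis), with 1 line per probe. The 2 bright Cul1 probes and the bright Cul3 probe are lowest in the calorie-restricted mouse while the dim Cul1 probes are level, and 1 Rnf14 probe peaks at 10.31 in the 174-day mouse.

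Among the RING finger genes, Rnf14 had the widest differences. It encodes a ligase that binds the androgen receptor. Its 1st probe read 8.57 in the calorie-restricted, 8.78 in the 174-day and 7.46 in the 17-day mouse, so that both older mice were more than 2-fold above the young one, at 1.12 and 1.32 log2. The 2nd probe read 6.55 in the calorie-restricted, 10.31 in the 174-day and 6.66 in the 17-day mouse, so that only the 174-day mouse was high. Its deposited intensity there was 330, against 208 in the calorie-restricted and 215 in the 17-day mouse, although the 174-day array was the dimmest. The dim 3rd probe, on array B, was at -0.30 in the age comparison and -0.10 in the diet comparison. As the median of the passing probes Rnf14 was at 2.49 for age and -1.98 for diet, but without that high 174-day spot it was at 1.32 for age, -0.21 for diet and 1.12 between the calorie-restricted and the 17-day mouse.

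Rnf139, also known as Trc8, resides in the endoplasmic reticulum and takes part in the breakdown of the sterol synthesis enzyme HMG-CoA reductase. It had a single probe, at 8.46 in the calorie-restricted, 7.56 in the 174-day and 7.44 in the 17-day mouse. The calorie-restricted mouse was thus above both ad libitum mice, by 0.89 and 1.02 log2, and these differed by 0.13. After the correction for spot position the differences were 0.89 and 0.72. Rnf145, another membrane ligase of sterol regulation, was at 0.49 in the diet comparison and 0.17 against the 17-day mouse, with a dim probe at -0.40 and 0.05.

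Chromatin ligases were spread over both sides. Rnf20, which ubiquitinates histone H2B, had its passing probes at 0.31 and 1.11 in the diet comparison and a dim probe at 0.48, so that all 3 were higher in the calorie-restricted mouse. In the age comparison the same probes were at -0.29, -0.66 and -0.04. The passing probes were thus low in the 174-day mouse, while the dim probe was nearly level between the ad libitum mice. Rnf2, the catalytic subunit of Polycomb repressive complex 1, lay the other way, with 3 probes at -0.94, -0.70 and -1.28 for diet and 0.48, 0.64 and 1.13 for age. Only its 1st probe passed the filter, and after the correction for spot position Rnf2 was at -0.19 for diet and 0.12 for age. Rnf40, with 1 probe, was at -0.74 for diet and 0.47 for age, opposite in sign to Rnf20, and at -0.64 and 0.17 after the correction. Rnf2 and Rnf40 were named after their values were seen.

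By gene value the remaining RING genes were within 2-fold throughout. Rnf111, or Arkadia, a ligase of transforming growth factor beta signalling, was the lowest in the calorie-restricted against the 17-day mouse at -0.83 and was at -0.96 for diet, but its dim probe was at -0.33 and -0.10. After the correction for spot position Rnf111 was at -0.41 and -0.39. Rnf13, a ligase of endosomal membranes, was the lowest in the age comparison at -0.56, or -0.40 after the correction. The passing probes of the membrane ligases Rnf103, Rnf121 and Rnf145 lay between -0.31 and 0.49 in the 3 comparisons, but with median centring Rnf121 was at -0.54 and Rnf145 at -0.45 for diet, on the other side of 0. The Rnf103 probe read 13.58 in the calorie-restricted, 13.58 in the 174-day and 13.68 in the 17-day mouse. It was among the spots of highest rank, where quantile normalization leaves little room to differ, and for diet it was 2-fold lower with median centring and at 0.52 with loess.

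The Arih ligases act together with cullin-RING ligases, Arih1 with Cul1 complexes and Arih2 with Cul5 complexes. In the age comparison Arih1 was at 0.08, with probes at 0.07 and 0.10. Arih2 was at 0.39, with passing probes at 0.35 and 0.42 and a dim probe at 0.18, so that its 3 probes shared a sign. In the diet comparison the probes of Arih1 were at -0.89 and 0.32 and did not, whereas those of Arih2 were at -0.05, -0.69 and -0.78. Of the HECT ligases, Ube3b had 2 probes on array B with differences of -0.10 and -0.14 for age and -0.37 and -0.05 for diet. Ube3c, known to act at the proteasome, had a probe below the filter, at 0.10 for age and -0.26 for diet.

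The tripartite motif family had no member 2-fold apart among the 10 with a passing probe. Per comparison and direction the share of all genes was 0.44% to 4.61%, so that 0 of 10 is near it. The family medians were 0.14 for age, -0.04 for diet and -0.10 between the calorie-restricted and the 17-day mouse. Trim28, the corepressor of zinc finger repressors of transposons, was measured by 3 passing probes. The 1st read 8.64 in the calorie-restricted, 8.28 in the 174-day and 8.35 in the 17-day mouse, and the 3rd read 9.07, 8.96 and 9.17 in the same mice. The 2nd read 8.85 in the calorie-restricted and 7.96 in the 174-day mouse. The diet differences were 0.36, 0.88 and 0.11, of the same sign, and the age differences -0.08, -0.04 and -0.21. Against the 17-day mouse the calorie-restricted one differed by 0.28, 0.84 and -0.10. As a gene Trim28 was at 0.36 for diet and at 0.01 after the correction for spot position. Trim34a was the highest for diet at 0.77, with 0.13 after the correction for spot position.

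Trim62 was the lowest for diet at -0.96, and at -0.31 after the same correction. For age Trim35 was the highest at 0.50, or 0.35 after the correction. Trim46, a microtubule protein of axons, was the lowest for age at -0.40, but at 0.01 after the correction. Trim44, an atypical member without a RING, had differences of -0.21 to 0.11. Trim27 had differences of -0.42 to 0.23.

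The F-box families supply the substrate adaptors of Cul1 ligases. None of their 13 genes with a passing probe was 2-fold apart, which is near the 0.44% to 4.61% of all genes per comparison and direction. Their medians were -0.06 for age, -0.09 for diet and -0.15 between the calorie-restricted and the 17-day mouse. Fbxw7, the adaptor for cyclin E, Myc and sterol regulatory proteins, read 11.03 in the calorie-restricted, 11.19 in the 174-day and 11.19 in the 17-day mouse. Its largest difference was -0.17, but with median centring its diet difference was -1.09. Fbxo42, Fbxo21 and Fbxw5 had gene values between -0.23 and 0.11 in the 3 comparisons, but for diet median centring put them at -0.95, -0.70 and -0.72. All genes had a diet median of -0.31 with that scaling.

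Fbxl5, the iron-sensing adaptor that destroys iron regulatory protein, was the Fbxl gene with the wider differences. It read 8.80 in the calorie-restricted, 9.12 in the 174-day and 9.52 in the 17-day mouse, so that the youngest mouse was highest and the difference from it was -0.72 in the calorie-restricted and -0.40 in the 174-day mouse. After the correction for spot position these were -0.30 and -0.42, and the diet difference of Fbxl5 turned to 0.12, against -0.32 before it. Fbxl18 was at -0.26 and -0.16 against the 17-day mouse. Fbxo6, which binds glycans of misfolded glycoproteins, read 8.99 in the calorie-restricted, 9.91 in the 174-day and 9.56 in the 17-day mouse. Its diet difference of -0.91 was the lowest among the Fbxl, Fbxo and Fbxw genes with a passing probe, but it was -0.11 after the correction for spot position.

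Fbxo3 was the highest Fbxo gene for diet at 0.52, its dim probe was at 0.24, and after the correction for spot position the gene was at -0.01. Fbxw4 was at 0.64 for diet, or 0.19 after the correction, and Fbxw27 at -0.23, with a dim probe of Fbxw27 at -0.35. Fbxo15, known as a marker of embryonic stem cells, had passing probes at 0.58 and -0.14 for age and -0.25 and 0.31 for diet, of opposite sign in each. Fbxo32, or atrogin-1, a ligase adaptor of muscle wasting named here after its values were seen, read 7.73 in the calorie-restricted, 7.79 in the 174-day and 7.75 in the 17-day mouse.

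Probes of the same gene gave the only measure of error within these arrays. Over the 11 members with at least 2 passing probes, the SD between probes was 0.50 log2 for age, 0.86 for diet and 0.55 between the calorie-restricted and the 17-day mouse. Over all 557 such genes it was 0.45, 0.58 and 0.40. The SD of the members includes Rnf14, whose passing probes had the widest gap for age (2.34) and diet (3.56). The median gap between probes of a member was 0.26 for age and 0.70 for diet, against 0.33 and 0.54 over all such genes. All passing probes shared a sign in 7 of 11 members for age, 7 for diet and 4 between the calorie-restricted and the 17-day mouse, a share of 63.6%, 63.6% and 36.4%, against 50.1%, 49.7% and 48.7% of all such genes. For diet, Cul1 (-1.04) and Rnf7 (-1.06) stand beside an SD between probes of 0.86 in members and 0.58 over all genes. Cul1 was at -0.45 over all its probes, and Rnf14 (-1.98) at -0.21 without the spot that was high in the 174-day mouse only. This spread does not cover differences between animals, and what it comes from was not tested.

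**Figure D3:**
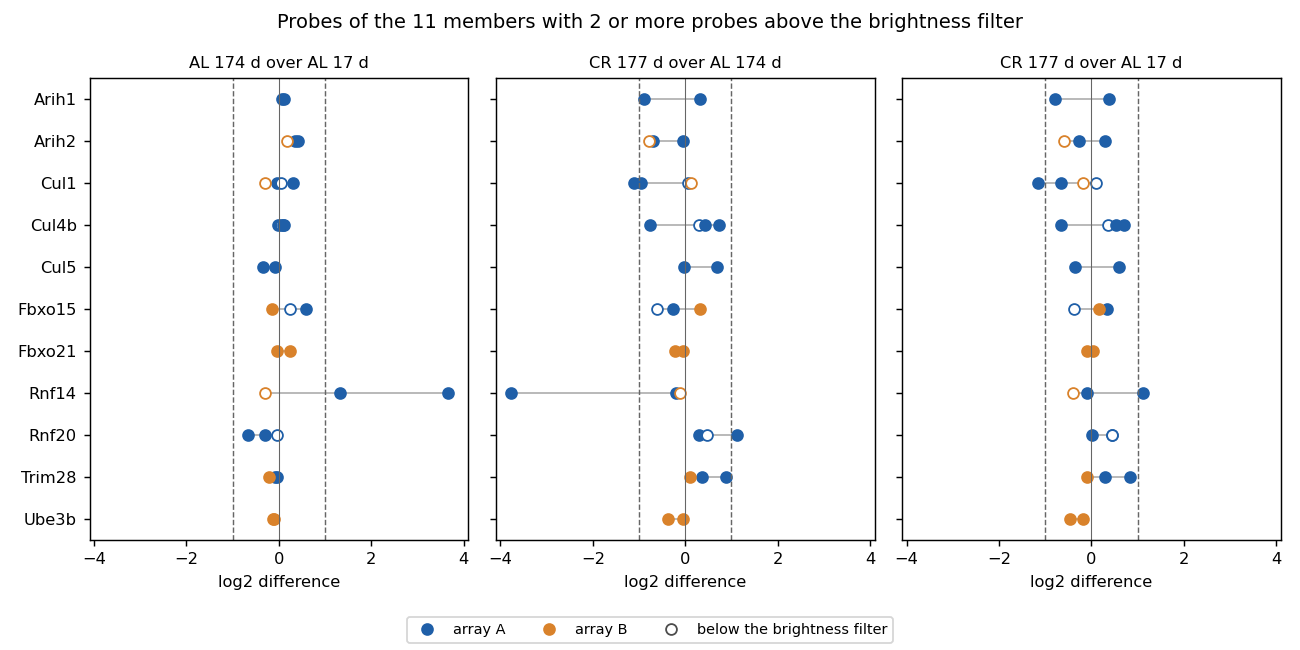
Log2 difference (horizontal axis) of each probe of the 11 members with at least 2 passing probes (vertical axis) in the 3 comparisons; AL is ad libitum and CR calorie-restricted. Grey lines join probes of a gene and dashed lines mark 2-fold; Rnf14 spans -0.30 to 3.66 in the age comparison, while Arih1, Cul4b and Ube3b probes nearly coincide there.

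The correction for spot position moved the members by a median of 0.15 log2 for age, 0.26 for diet and 0.22 between the calorie-restricted and the 17-day mouse. The sign changed in 20, 14 and 11 of the 63 genes. After it, Rnf14 was the 1 member 2-fold apart, at 2.19 for age and -1.82 for diet, but these values again include the probe that passed through its high 174-day value.

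**Figure D4:**
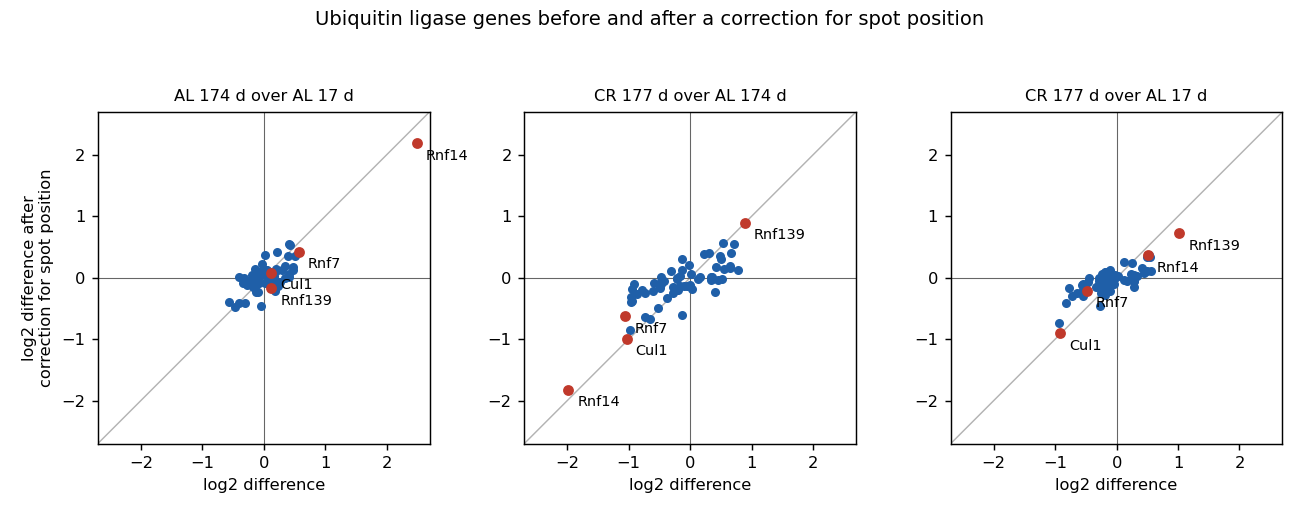
Log2 difference of each of the 63 members before (horizontal axis) and after (vertical axis) the correction for spot position in the 3 comparisons, with the line of equality; AL is ad libitum and CR calorie-restricted. Cul1 stays near the line, and Rnf14 moves from 2.49 to 2.19 in the age comparison. Rnf7 moves from -1.06 to -0.63 in the diet comparison, and the sign changes in 20, 14 and 11 members over the 3 panels.

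Ligases outside the 8 families, from a list of 73 symbols, had 23 genes with a passing probe. In the diet comparison 1 was 2-fold higher, Ubr3 (1.02), a ligase of the N-end rule family, and none lower, against 2.25% and 4.61% of all genes. Over both its probes Ubr3 was at 0.51, but its dim probe lay under the 5th percentile of every array and so had a difference of 0 by construction. The lowest were Mib1 (-0.96), a ligase of Notch ligands whose dim probes were at 0.68 and 0.11, Cdc26 (-0.71), a subunit of the anaphase-promoting complex, and Smurf2 (-0.64), which targets Smad proteins. Their median was -0.20 for diet, -0.05 for age and -0.16 between the calorie-restricted and the 17-day mouse, beside -0.04, -0.03 and -0.09 over all genes. In the age comparison none was 2-fold apart among passing probes, from -0.66 for Anapc4 to 0.46 for Smurf1. Over all genes 0.724% were higher and 0.44% lower there. Of 13 activating enzyme and ubiquitin-like genes, Sumo2 alone had a passing probe, at -0.39 for age and 0.02 for diet.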

How the data were processed

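Total RNA of 3 livers was hybridised to 2 kinds of array, per the labels. As deposited by the authors, each file gives 1 spot intensity per probe, taken as linear because the values were positive, skewed to the right and of unequal median between arrays. Label chemistry, scanner, background treatment and scaling by the authors are not given in the sources used here, which may affect the differences of dim spots most. The number of arrays limits the precision. Every column of values belonged to a mouse (0 did not). Gene names came from GEO's platform annotation (1 symbol for 9663 of 16896 spots, several for 436, none for 6797). Of these, 9641 matched RefSeq genes of GRCm38.p6 by gene number, including all 160 member probes, and 0 symbols changed. Promoter windows were found for 92 of the 118 members.

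Intensities under an array's 5th percentile were set to it. After log2, quantile normalization was run on the 3 arrays of each design. All 3865 genes with a passing probe formed the background, and at least 2-fold (1 log2) counted as higher or lower. A spot stood apart in a mouse when it lay at least 1.5 log2 from both other mice on the same side. The position correction removed median deviations of 16 blocks of 528 consecutive spots and of places within a block. The spot layout is not given in the sources used here. The alternatives were median centring, no scaling, loess (span 0.3), no filter or the top 25% of probes, the brightest probe, a higher floor (25th percentile), 1.5-fold, each array kind alone, no spots of exactly 10, no spots apart in 1 mouse, the position correction and, added later, normalization without the 174-day arrays. The procedure was run on simulated data with independent noise per spot and no effect of spot position. As these arrays do show such an effect, that run checks the calculation only and does not measure the error here. The members, lists and most alternatives were chosen with earlier results of these data known.

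Named were all Cul, Arih and Ube3 genes, members 2-fold apart or with at least 2 passing probes, and in the other families the 3 brightest and the highest and lowest in each comparison. From each list of other genes at most 6 were named. Plots were drawn with matplotlib 3.10.9 and loess was run with statsmodels 0.14.6, beside scipy 1.17.1, pandas 2.3.3 and numpy 2.4.6 under Python 3.11.15.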

Additional observations from a re-analysis of the deposited data

How the results depend on the processing

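Counts of members that were 2-fold apart were small and changed with the processing; the share of all genes is given in brackets. In the age comparison 1 member (Rnf14) was higher (0.724%), but 2 with median centring (1.58%) and 2 without the brightness filter (1.96%). The count was 0 with no scaling (0.129%), among the top 25% of probes (0.272%) or on array B alone (0.427%). None was lower (0.44%), but 3 were without the brightness filter (1.26%) and 62 with no scaling (99.7%). In the diet comparison 0 were higher (2.25%), but 4 without the brightness filter (3.06%), 6 at 1.5-fold (11.5%) and 63 with no scaling (98.9%). There 3 were lower (4.61%), but 15 with median centring (15.8%), 15 at 1.5-fold (17.0%) and 7 with loess (5.51%). The count was 2 with the brightest probe (4.86%), on array A alone (5.19%) or without spots apart in the 174-day mouse (4.18%). It was 1 among the top 25% (3.04%), on array B alone (4.46%) or after the position correction (2.02%), and 0 with no scaling (0.155%). Between the calorie-restricted and the 17-day mouse 1 (Rnf139) was higher (0.466%). The count was 2 with the brightest probe (0.621%) or without spots apart in the 174-day mouse (0.494%). It was 0 with loess (0.181%), among the top 25% (0.489%), on array B alone (0.142%) or after the position correction (0.103%). None was lower (1.11%), but 6 were at 1.5-fold (9.91%). With no scaling (3.1%), without the brightness filter (0.755%), among the top 25% (1.41%) or with the brightest probe (1.16%), 1 was lower. With no scaling the 174-day arrays stay dim by construction, and Cul1 (2.25), Rnf14 (1.21) and Rnf7 (1.22) changed sign for diet and Rnf14 (-0.66) for age. No other member 2-fold apart changed sign. Of the 108 values of single named genes, 44 changed sign with no scaling, 30 after the position correction, 15 with median centring, 7 with the brightest probe and 6 without the brightness filter. Over family medians and named genes, 1586 values under an alternative moved by less than the SD between probes of a gene. Another 142 moved by at least that SD, and 4 were the sign changes of members 2-fold apart. Many of the 1586 had little room to move, since a higher floor or leaving out some spots left most gene values as they were. After the position correction 9 values moved by at least that SD. The cause of the changes was not tested. The dimness of the 174-day arrays limits the comparisons with that mouse.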

Other observations

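Members without a passing probe held further differences in dim spots. With the dim probes included, Fbxo38, Fbxw19, Rnf130 and Rnf157 were 2-fold higher under calorie restriction than in the 174-day mouse, beside Fbxw17, Fbxw24 and Rnf7 on the lower side. Fbxo38 (1.18) lay at the floor in the 174-day mouse, and read 6.03 in the calorie-restricted and 6.04 in the 17-day mouse. Rnf157 (1.09) and Fbxw19 (1.08) had the same pattern, low in the 174-day mouse only. Fbxw24 was low in the calorie-restricted mouse, at 5.01, against 6.29 in the 174-day and 6.30 in the 17-day mouse.

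Probes of Rnf122 and Fbxo28 went opposite ways in the diet comparison. A dim Rnf122 probe was at 2.27 while its bright probe was at -0.48, and the 2 dim probes of Fbxo28 were at 1.59 and -0.21.

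Among the 92 members with a promoter window, 62% held a GC box in the 250 bases before the outermost start and the median was 15.5 CpG, against 42.7% and 10 in 17492 protein-coding genes. The CCAAT box was in 32.6% of member windows and 36.5% of all, the ETS letters in 12% and 9.15%, the TATA box in 8.7% and 12.4%, the E-box in 3.26% and 6.65%, and the FOXO letters in 3.26% and 2.57%. These are shares of letters, with no test.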
